A study of Pseudotsuga menziesii with 10 samples.

Results

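Young megagametophytes of Douglas-fir (Pseudotsuga menziesii) were set against the cone tissue that surrounds them, with 4 of the 10 RNA sequencing libraries of the series. On one side stood the libraries of 10 June 2011, 1 from pollinated and 1 from unpollinated cones, and on the other side cone scales and cone bracts of 26 May 2011, 1 library each. These 4 libraries were chosen by tissue and date from the labels, as the closest dates at which the series has gametophyte and sporophyte tissue, and the rule uses no measured value, although earlier results of these data were known when it was set. The megagametophyte libraries were pools of many dissected gametophytes, and all tissue came from ramets of a single clone, genotype 970, grown in a seed orchard. Pollen cones were removed from the branches and the seed cones bagged, and the pollinated cones received a mix of orchard pollen while the unpollinated ones received none. The labels describe the pollinated pool of 10 June as fertilized, but the series places fertilization at the next date, 22 June, and the formation of the corrosion cavity at 10 June. Scales and bracts carry no pollination label and were collected 15 days before the megagametophytes, so tissue and date cannot be told apart. No group had a second library: the error in the tests below is the spread between the 2 pollination states and between scales and bracts, and p-values measure only that spread.

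The megagametophyte is the haploid female gametophyte of conifers. It grows from a megaspore inside the ovule, forms the archegonia with the egg cells, and later becomes the tissue that stores protein and lipid for the embryo. The corrosion cavity is a space that opens within it by breakdown of its own cells, and the embryo is later pushed into this space. Cone scales are the diploid organs that carry the ovules, and bracts are the leaf-like organs below them.

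The table gives levels of 54889 assembled transcripts, called contigs, as a logarithm of FPKM, which counts fragments per contig length and library size. It pairs no contig with a gene name, so contigs appear by identifier, no gene family is described, and the labelled tissues could not be checked against marker genes. How many reads each library had is unknown. Contigs at 10 FPKM or more were about equally many in the 4 libraries, from 8700 in scales to 8815 in unpollinated megagametophytes. At 1 FPKM or more they numbered 26596 and 29242 in pollinated and unpollinated megagametophytes, 28069 in scales and 39644 in bracts, so that bracts held more contigs at low levels. In pooled tissue a lower level cannot tell fewer cells of a type from less RNA per cell.

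The megagametophytes of 10 June shared little of their most abundant RNA with cone tissue. The 2 contigs with the highest mean level on 10 June were also those furthest above cone tissue. GAZW02022487 stood at 2451 FPKM in the pollinated and 4972 FPKM in the unpollinated pool, against 0.717 FPKM in the scales and 2.63 FPKM in the bracts. GAZW02012967 stood at 1697 and 2895 FPKM in these megagametophytes, against 0.117 FPKM in the scales and 2.14 FPKM in the bracts. Both gametophyte libraries lay far above both cone libraries, the unpollinated pool was the higher one for both contigs, and bracts were the higher cone tissue.

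The contigs furthest in the other direction were nearly absent from the gametophyte. GAZW02056181 stood at 1745 FPKM in the scales and 2164 FPKM in the bracts, and at 0.385 and 1.14 FPKM in pollinated and unpollinated megagametophytes. GAZW02041636 stood at 387.0 FPKM in the scales and 1964 FPKM in the bracts, and at 0.165 and 0.0425 FPKM in the gametophyte libraries. Scales and bracts were close for the first of these contigs and far apart for the second, without any overlap with the gametophyte in either case.

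In limma, which was fitted to the 4 libraries on log2(FPKM + 1) over the 33140 contigs that averaged 1 FPKM or more, 7063 contigs were higher in the 10 June megagametophytes than in cone tissue and 7299 were lower, at an adjusted p under 0.05. These are 21.3% and 22.0% of the contigs tested. The difference was 10.45 ± 0.52 (SE) log2 units for GAZW02022487 and 10.21 ± 0.59 for GAZW02012967 (limma adjusted p 0.000919 and 0.00115). It was -10.14 ± 0.28 log2 units for GAZW02056181 and -9.63 ± 0.82 for GAZW02041636 (limma adjusted p 0.000552 and 0.00258). A pseudocount of 1 FPKM is part of this scale, so these values understate the fold of contigs near 0. The calls rest on having both gametophyte libraries. Without the pollinated library 0 contigs passed in limma (12129 at an unadjusted p under 0.05, smallest adjusted p 0.0531), and without the unpollinated one 0 passed as well (12278, smallest adjusted p 0.0581), the spread then coming from scales and bracts alone with 1 residual degree of freedom and the lone gametophyte library being taken to vary like them. The 4 named contigs kept their direction in both fits. When all 10 libraries shared 1 estimate of the spread, limma called 8512 contigs higher and 9813 lower.

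**Figure D1:**
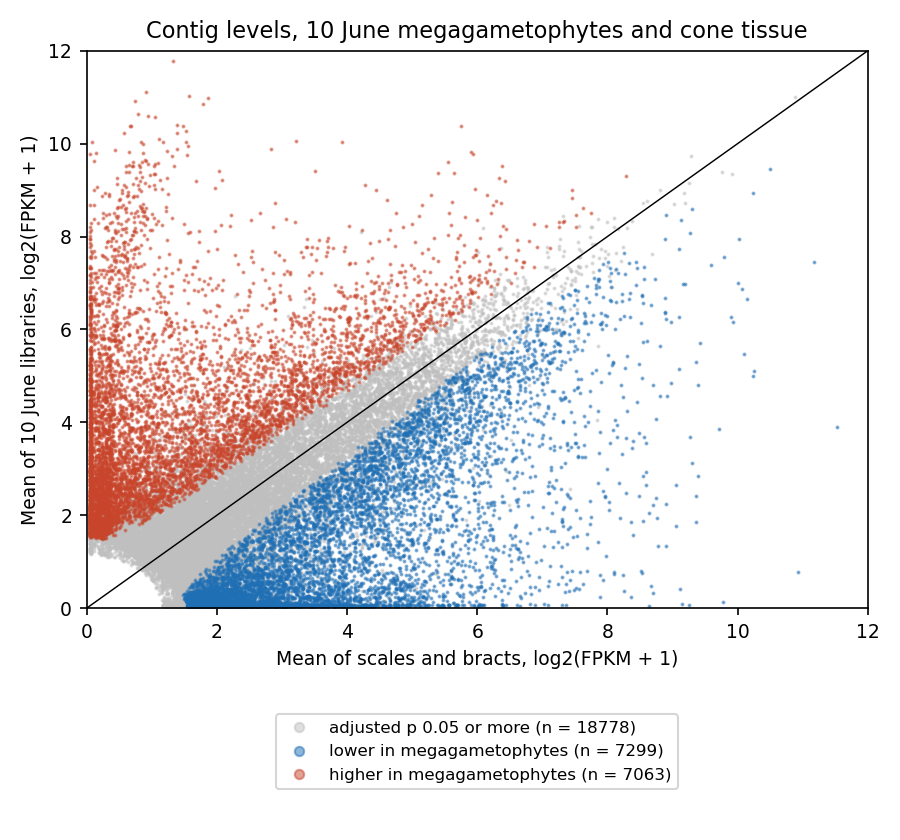
Each point is 1 of 33140 tested contigs, with the mean level in scales and bracts on the horizontal axis and the mean level in the 10 June megagametophyte libraries on the vertical axis, both in log2(FPKM + 1). Contigs that passed in limma are red where higher (7063) and blue where lower (7299) in megagametophytes. Most of the 100 highest gametophyte contigs lie to the left, 78 of them under 10 FPKM in both cone libraries. Among all tested contigs, 26.25% reached 10 FPKM in scales and 26.4% in bracts.

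The numbers of contigs on the 2 sides were about equal, but the sizes of the differences were not. Among the contigs that passed, 2-fold differences or more were fitted for 6696 higher and 6856 lower contigs. At 8-fold the numbers were 2040 higher and 1606 lower, at 32-fold 688 and 273, and at 128-fold 244 and 31. The same held without a test. Contigs that reached 10 FPKM in both libraries of the higher side and at least 2-fold apart in each of the 4 pairs of libraries numbered 3079 on the gametophyte side and 2742 on the cone side. At 32-fold in each pair they numbered 573 and 160, and at 128-fold 190 and 16. The narrow majority of lower contigs among the calls turned with the scale, to 6778 higher and 6400 lower with a pseudocount of 5 FPKM and to 7453 and 7059 under quantile normalization.

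Calls were more frequent among abundant contigs. Of the 9375 contigs with a mean of 1 to 2 FPKM over the 4 libraries, 11.2% were higher and 14.4% lower in megagametophytes. Of the 8937 contigs with a mean of 10 to 100 FPKM, 29.0% were higher and 30.0% lower. Of the 790 contigs at 100 FPKM or more, 45.4% were higher and 35.2% lower. Between 2 and 10 FPKM the shares of the 2 directions differed by less than 1 percentage point.

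The spread within each side was smaller than the distance between the sides. Over the tested contigs the 2 gametophyte libraries differed by a median of 0.25 log2 units and were 2-fold or more apart for 9.34% of contigs. Scales and bracts differed by a median of 0.42 log2 units and were 2-fold apart for 18.9%. The 4 pairs that cross the sides had medians of 1.06 to 1.28 log2 units and were 2-fold apart for 52.2% to 58.7% of contigs. By these measures and by correlation, the scales library was nearer to the gametophyte than the bracts library was in both pollination states. Bracts had 39644 contigs at 1 FPKM or more against 28069 in scales, each a single library of unknown depth. The part of these low levels in the ranking was not tested. Across the 33140 tested contigs, Pearson's r with scales was 0.388 for pollinated and 0.369 for unpollinated megagametophytes, and r with bracts was 0.297 and 0.291. Without the filter on low values, across all 54889 contigs, r was higher, at 0.569 and 0.555 with scales and 0.471 and 0.463 with bracts, and scales were again the nearer tissue. Across the tested contigs, r within the sides was 0.935 for the gametophyte libraries and 0.866 for scales and bracts. These contigs share libraries and are not independent replicates, so no p-value is given.

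The most abundant contigs of each side were compared by rank, with the ranking taken from the levels themselves. Of the 100 contigs with the highest mean level on 10 June, 78 were under 10 FPKM in both cone libraries and 17 were under 1 FPKM in both. Of the 100 most abundant contigs of cone tissue, 29 were under 10 FPKM in both gametophyte libraries and 10 were under 1 FPKM in both. Among all tested contigs, 26.25% reached 10 FPKM in scales and 26.4% in bracts, so most were under 10 FPKM in each. Under 1 FPKM were 24.4% in scales and 18.1% in bracts. In pollinated and unpollinated megagametophytes 26.3% and 26.6% of them reached 10 FPKM, and 26.1% and 23.0% were under 1 FPKM. The lists had 7 contigs in common, and how many would be shared by chance was not computed. The median level of the 100 gametophyte contigs was 733.2 and 783.2 FPKM in pollinated and unpollinated megagametophytes, 0.797 FPKM in the scales and 1.45 FPKM in the bracts. The median level of the 100 cone contigs was 525.4 FPKM in the scales and 523.6 FPKM in the bracts, and still 50.3 and 44.3 FPKM in the gametophyte. Abundant cone contigs were thus often present in the gametophyte, while abundant gametophyte contigs were mostly scarce in the cone. The 100 gametophyte contigs held 15.7% and 17.4% of the summed FPKM of the 10 June libraries, 1.79% of that of scales and 1.42% of that of bracts.

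The 2 most abundant contigs of cone tissue were in the gametophyte too. GAZW02101430 stood at 2646 FPKM in the scales and 3258 FPKM in the bracts, and at 16.5 and 11.6 FPKM in pollinated and unpollinated megagametophytes of 10 June. GAZW02044343 stood at 2164 FPKM in the scales and 2451 FPKM in the bracts, and at 187.7 and 163.3 FPKM in the gametophyte. The difference from cone tissue was -7.63 ± 0.22 (SE) log2 units for GAZW02101430 and -3.71 ± 0.12 for GAZW02044343 (limma adjusted p 0.000552 and 0.000575). On 6 July GAZW02101430 stood at 57.9 and 54.3 FPKM in pollinated and unpollinated megagametophytes, and GAZW02044343 at 521.8 and 633.7 FPKM.

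Contigs present on one side and absent from the other were counted by level, as at least 10 FPKM in both libraries of a side and under 1 FPKM in both libraries of the other. The gametophyte set defined in this way held 1067 contigs, 3.22% of those tested, and the cone set held 602, or 1.82%. The levels of these 4 libraries chose both sets, so their levels there are a description and carry no test. The median of the gametophyte set was 31.9 FPKM in the pollinated and 33.5 FPKM in the unpollinated pool, 0.0570 FPKM in the scales and 0.214 FPKM in the bracts. The median of the cone set was 23.1 FPKM in the scales and 25.9 FPKM in the bracts, and 0.173 and 0.157 FPKM in pollinated and unpollinated megagametophytes. Over all tested contigs the medians of the 4 libraries lay between 3.17 and 3.69 FPKM. The gametophyte set took 16.4% of the summed FPKM in the pollinated library and 15.7% in the unpollinated one. The cone set took 5.14% in scales and 6.61% in bracts. Outside both sets, 4345 contigs reached 10 FPKM in each of the 4 libraries, with medians of 29.1 to 32.6 FPKM.

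Contigs that the gametophyte shared with only 1 of the cone tissues were few. At or above 10 FPKM in both gametophyte libraries and in scales, and under 1 FPKM in bracts, there were 20 contigs, and with scales and bracts exchanged there were 4. Of the 2 most abundant contigs shared with scales, GAZW02067076 stood at 113.6 and 97.4 FPKM in pollinated and unpollinated megagametophytes, 17.3 FPKM in the scales and 0.301 FPKM in the bracts. GAZW02099187 stood at 31.0 and 25.2 FPKM in the gametophyte, 94.0 FPKM in the scales and 0.0644 FPKM in the bracts. GAZW02096175 and GAZW02009952 were the most abundant contigs shared with bracts. GAZW02096175 stood at 22.9 and 32.8 FPKM in pollinated and unpollinated megagametophytes and 32.6 FPKM in bracts, and GAZW02009952 at 17.1 and 21.0 FPKM in the gametophyte and 45.9 FPKM in bracts, with 0.0497 FPKM in scales for both. Both also came near 0 in a single later library. GAZW02096175 stood at 26.1 and 0.0497 FPKM in pollinated and unpollinated megagametophytes on 6 July, and GAZW02009952 at 8.92 and 0.0425 FPKM on 22 June. A value near 0 in the only scales library is thus weak evidence of absence for them. None of the 4 contigs named here passed in limma, where the adjusted p lay between 0.0545 and 0.603, and the 2 cone tissues lay far apart. Scales alone had 54 contigs and bracts alone 116 that reached 10 FPKM there and stayed under 1 FPKM in the other cone tissue and in both gametophyte libraries.

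The rule for the gametophyte set asks for 10 FPKM in both pollination states and so favours contigs that are alike in them. Within the gametophyte set 1042 of 1067 contigs were within 2-fold of each other in the 2 libraries of 10 June, 9 were higher by 2-fold or more in the pollinated library and 16 in the unpollinated one, where over all tested contigs 1470 of 33140 were higher in the pollinated and 1625 in the unpollinated library. The cone set, chosen in the same way, had 455 of 602 contigs within 2-fold, 46 (7.64%) higher in scales and 101 (16.8%) higher in bracts, against 7.22% and 11.7% of all tested contigs. At 10 FPKM or more in 1 gametophyte library and under 1 FPKM in the other 3 libraries, there were 30 contigs for the pollinated and 10 for the unpollinated pool. Each pollination state had 1 library, so these counts compare pools and have no replicate check.

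**Figure D2:**
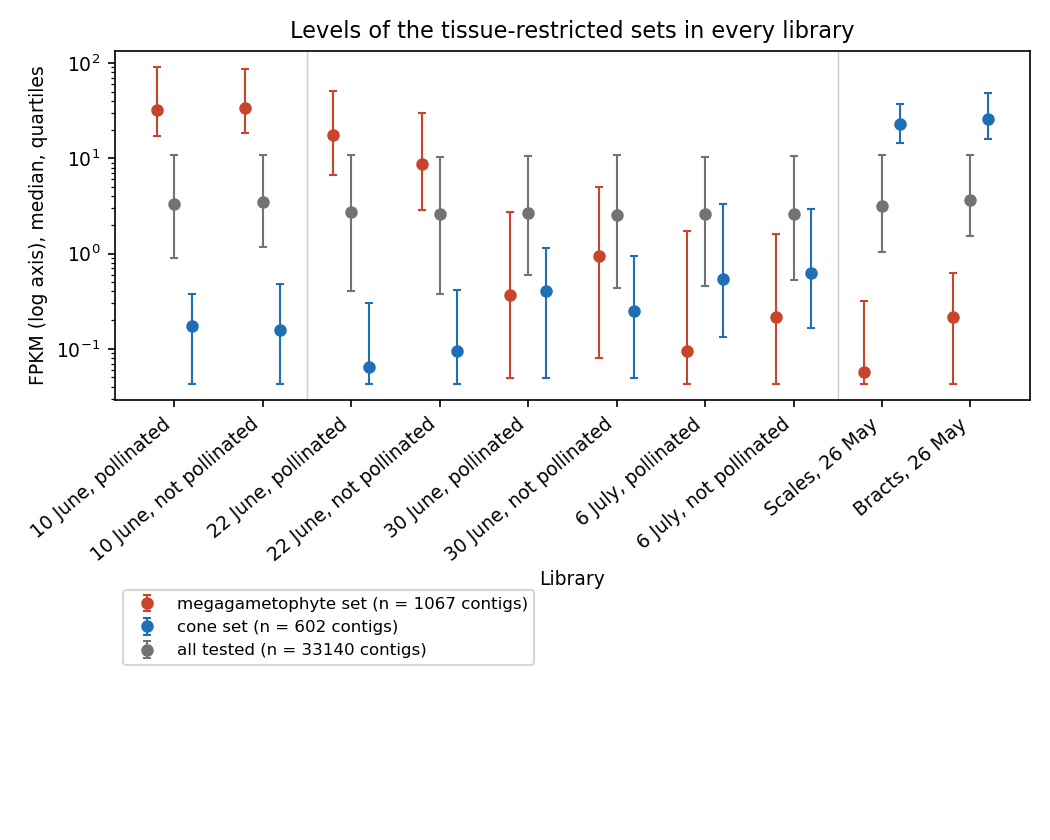
Median level in FPKM on a log axis, with bars from the lower to the upper quartile, of the 1067 contigs of the gametophyte set, the 602 of the cone set and all 33140 tested contigs in each of the 10 libraries. The gametophyte set has a median of 31.9 and 33.5 FPKM on 10 June and of 0.0943 and 0.214 FPKM on 6 July, while the cone set stays under a median of 1 FPKM in every megagametophyte library.

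The later megagametophyte libraries took no part in defining the sets. The gametophyte set had a median of 17.8 FPKM in the pollinated and 8.65 FPKM in the unpollinated pool on 22 June, of 0.366 and 0.945 FPKM on 30 June, and of 0.0943 and 0.214 FPKM on 6 July. All tested contigs had medians of 2.56 to 2.71 FPKM in these 6 libraries, so the set went from above to below the general level between 22 and 30 June. Both libraries of a date reached 10 FPKM for 493 of the 1067 contigs (46.2%) on 22 June, for 125 (11.7%) on 30 June and for 110 (10.3%) on 6 July. In each of these 6 libraries taken singly, 25.5% to 26.3% of all tested contigs reached 10 FPKM. On 6 July 732 of the 1067 contigs of the set (68.6%) were under 1 FPKM in both libraries. In the pollinated and unpollinated library of that date, 35.2% and 34.2% of all tested contigs were under 1 FPKM. A group of 85 contigs of the set reached 10 FPKM in each of the 8 megagametophyte libraries, and how many of all tested contigs did so was not counted. A set chosen for high values on 10 June can be lower elsewhere for that reason alone, and its part in these medians was not tested.

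The later libraries of the 2 pollination states were set side by side for the same contigs. On 22 June 380 of the 1067 contigs (35.6%) were higher by at least 2-fold in the pollinated and 12 (1.12%) in the unpollinated library, against 4.80% and 2.88% of all tested contigs. On 30 June 31 (2.91%) were higher in the pollinated and 195 (18.3%) in the unpollinated library, against 4.43% and 4.32% of all tested contigs. On 6 July the numbers were 31 (2.91%) and 20 (1.87%), against 3.96% and 4.09% of all tested contigs. The folds are those of log2(FPKM + 1), on which 2 values under 1 FPKM cannot be 2-fold apart. In pollinated and unpollinated libraries, 3.94% and 15.6% of the set were under 1 FPKM on 22 June, and 65.7% and 50.8% on 30 June. By 6 July these shares were 72.0% and 70.95%, so the later counts are limited by this floor and are not comparable with 22 June. Among all tested contigs, 35.8% and 35.9% were under 1 FPKM in pollinated and unpollinated libraries on 22 June. The floor thus holds down the general shares of that date more than those of the set, and these are not like for like. Each date has a single library of each state, and the change between dates was not tested.

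The cone set stayed low in the later gametophyte but was not absent everywhere. Its median was 0.0644 and 0.0943 FPKM in pollinated and unpollinated megagametophytes on 22 June, 0.400 and 0.248 FPKM on 30 June, and 0.537 and 0.619 FPKM on 6 July. Of its 602 contigs, both libraries of a date reached 10 FPKM for 4 (0.66%) on 22 June, for 10 (1.66%) on 30 June and for 43 (7.14%) on 6 July. In single libraries of these dates, 25.5% to 26.3% of all tested contigs did so. The highest level of the set in any megagametophyte library was 934.8 FPKM, in the unpollinated library of 6 July. The set took 0.0277% and 0.0296% of the summed FPKM on 10 June, and 0.647% and 0.629% on 6 July, in pollinated and unpollinated megagametophytes.

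**Figure D3:**
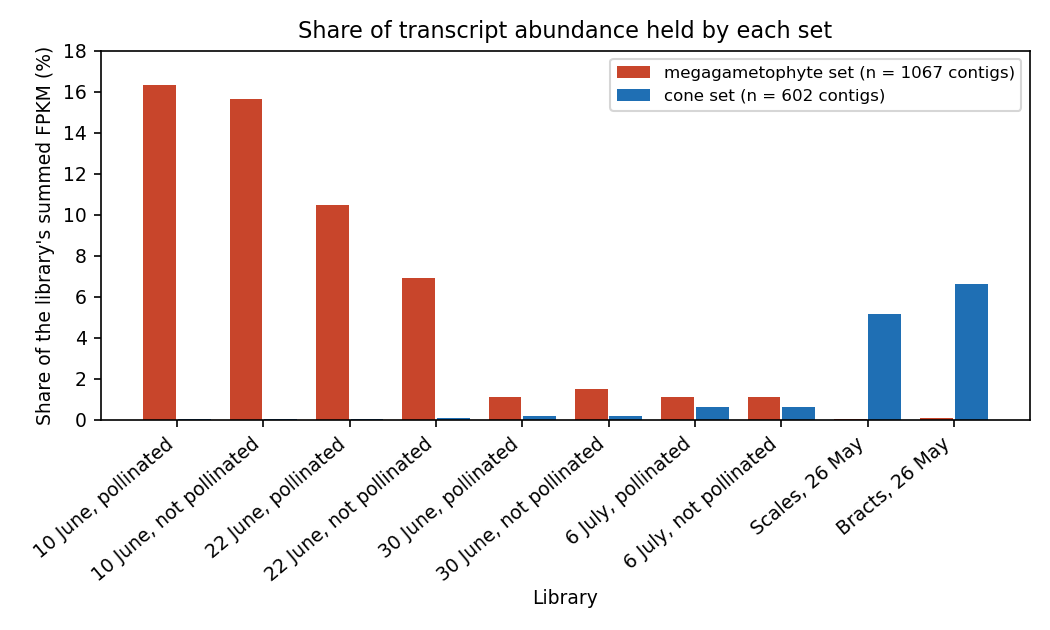
Share of the summed FPKM of each library, in percent, taken by the 1067 contigs of the gametophyte set (red) and the 602 of the cone set (blue). The gametophyte set takes 16.4% and 15.7% on 10 June and 1.09% in both libraries of 6 July, and the cone set takes 5.14% in scales and 6.61% in bracts.

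The signed difference from cone tissue was compared between the youngest and the oldest gametophytes. The same 2 cone libraries serve for both dates and cancel, so the test is that of 10 June against 6 July in a limma fit of all 10 libraries, with 29445 contigs. The level was higher on 10 June for 5414 contigs, 18.4% of those tested, and higher on 6 July for 5581, or 19.0%. This test does not say on which date a contig was nearer to cone tissue. At or above 10 FPKM in both 6 July libraries and under 1 FPKM in scales and bracts there were 285 contigs, 0.935% of the 30485 with a mean of 1 FPKM or more in those 4 libraries, where 10 June had 1067. In the opposite direction 6 July had 442 contigs, or 1.45%, where 10 June had 602. The 285 contigs chosen on 6 July took 1.93% and 1.94% of summed FPKM on that date in pollinated and unpollinated megagametophytes. The 1067 contigs chosen on 10 June took 16.4% and 15.7% on 10 June. These sets were chosen separately, each by high levels in the libraries whose shares are given.

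GAZW02022487 and GAZW02012967 also had the largest changes toward 10 June in this test. GAZW02022487 stood at 1697 and 1551 FPKM in pollinated and unpollinated megagametophytes on 22 June, at 1.79 and 23.3 FPKM on 30 June, then at 0.729 and 1.36 FPKM on 6 July. GAZW02012967 stood at 642.6 and 293.1 FPKM on 22 June, at 0.537 and 0.919 FPKM on 30 June, then at 0.283 and 0.729 FPKM on 6 July. By 6 July both contigs were at the level of scales and bracts. The change was 10.76 ± 0.89 (SE) log2 units for GAZW02022487 and 10.54 ± 0.55 for GAZW02012967 (limma adjusted p 0.000100 and 3.76e-05).

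In the other direction, GAZW02015617 stood at 0.0425 and 0.0718 FPKM on 10 June, then at 791.4 and 934.8 FPKM on 6 July in pollinated and unpollinated megagametophytes, and at 63.0 FPKM in the scales and 264.0 FPKM in the bracts. GAZW02053953 stood at 0.0497 and 0.0425 FPKM on 10 June, at 954.4 and 511.0 FPKM on 6 July, and at 12.2 FPKM in the scales and 3.08 FPKM in the bracts. Both were below cone tissue on 10 June and above it on 6 July. The change between the dates was -9.67 ± 1.20 (SE) log2 units for GAZW02015617 and -9.39 ± 1.50 for GAZW02053953 (limma adjusted p 0.000566 and 0.00188). Their differences from cone tissue on 10 June were -6.95 ± 0.73 and -2.81 ± 0.63 log2 units (limma adjusted p 0.00426 and 0.0276).

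The 2 contigs highest in cone tissue relative to 10 June took different courses. GAZW02056181 was at 7.11 and 8.78 FPKM on 30 June, then at 35.5 and 17.1 FPKM on 6 July in pollinated and unpollinated megagametophytes, a limma difference between 10 June and 6 July of -3.90 ± 0.36 (SE) log2 units at an adjusted p of 0.000144. GAZW02041636 stayed under 0.3 FPKM in all 8 megagametophyte libraries, and its difference between the dates was -0.07 ± 0.64 log2 units at a limma adjusted p of 0.963.

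**Figure D4:**
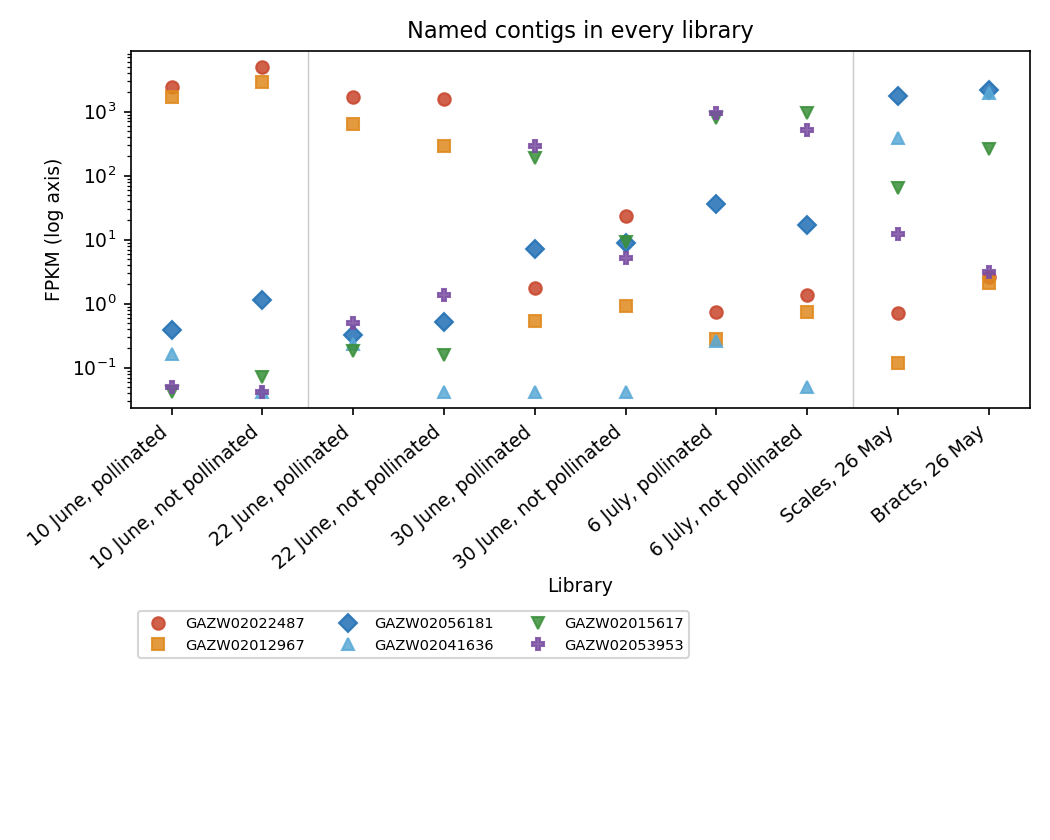
Level in FPKM on a log axis of the 6 contigs named from the 2 tests, in each of the 10 libraries, 1 point per library. GAZW02022487 and GAZW02012967 are at 1697 FPKM or more on 10 June and under 3 FPKM in cone tissue, GAZW02056181 and GAZW02041636 are at 387.0 FPKM or more in cone tissue and under 2 FPKM on 10 June, and GAZW02015617 and GAZW02053953 are under 2 FPKM on 10 and 22 June and at 511.0 FPKM or more on 6 July.

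Contigs with neighbouring numbers tended to differ from cone tissue in the same direction. The numbers are those of the accessions of the assembly, and what neighbouring numbers share is not given in the sources used here. Across 14904 pairs of tested contigs whose numbers follow each other, the difference between 10 June and cone tissue correlated at r = 0.447. Pairs 2 numbers apart gave 0.314, pairs 5 apart 0.139, pairs 10 apart 0.034 and pairs 1000 apart -0.008. Where both contigs of an adjacent pair passed in limma, which was so for 3774 pairs, 3078 pairs differed in the same direction and 696 in opposite directions. At 1000 numbers apart the same counts were 1018 and 1067. Of the 9 other tested contigs within 10 numbers of GAZW02022487, 6 were higher in the gametophyte and 0 lower, and of the 8 around GAZW02041636, 4 were lower and 0 higher. The 6 around GAZW02012967 held 0 higher and 1 lower, and the 7 around GAZW02056181 also held 0 higher and 1 lower. Over all tested contigs 21.3% were higher and 22.0% lower. Contigs are therefore not independent of their neighbours, and the counts of contigs above do not give counts of genes.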

How the data were processed

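Per the labels' protocols, libraries of polyA RNA were read from both ends without strand information. Among the tools in the submitters' processing notes, which give no roles, are RSEM 1.2.12 and Bowtie 1.0.1 as well as FastQC 0.10, R 3.1.0, Trim Galore 0.2 and bedtools 2.17. The authors deposited 1 table on a log scale, read here as log2(FPKM + 1), without a statement of its base and offset; all levels and folds rest on that reading. Of the 79 values at 1000 FPKM or more in the 4 libraries, 41 were distinct. The deposited values are rounded, which also makes values repeat, so this count does not settle whether libraries share levels at the top. A step giving all libraries a common distribution is named in no source used here and would remove differences in overall level. Contigs at 10 FPKM or more numbered 8468 to 8815 in the 10 libraries, and whether such a step made these counts alike was not tested. No 2 columns were identical. Depth is unknown, so no counting error is given.

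Tests used limma 3.58.1 in R 4.3.3 (lmFit, eBayes with an intensity trend) with a pseudocount of 1 FPKM, only contigs that average 1 FPKM or more in the tested libraries, and Benjamini-Hochberg adjusted p under 0.05. The test of 10 June against cone tissue used 4 libraries with 2 residual degrees of freedom, and that of 10 June against 6 July all 10 libraries with 5. Contigs named are the furthest apart in each direction that passed and had the higher side at 10 FPKM or more, 2 per direction because no table pairs them with names, and the 2 most abundant in each level pattern described. The libraries were chosen by tissue and date, not by a measured value, but they, the sets, the tests and the naming rule were all chosen with earlier results of these data known, and the neighbour counts and ranked lists were added after the data were seen. The fits were run on simulated contigs drawn independently with replicate noise, to see that median differences put in were returned. This does not check the calls in these libraries, which have no replicates and whose contigs are not independent. Alternatives covered pseudocount, filter, scaling, variance model, threshold, reading of the logarithm and omission of libraries. Other summaries used Python 3.11.15, numpy 2.4.6 and pandas 2.3.3, and plots matplotlib 3.10.9. Which libraries shared a lane is not given.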

Additional observations from a re-analysis of the deposited data

Results flagged for a closer look

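The signed difference between gametophyte and cone tissue was itself different on 10 June and 6 July for 10995 contigs in limma (5414 with the higher value on 10 June, 5581 with the higher value on 6 July). The cone libraries cancel, so this is a difference between the dates of the megagametophytes and not a distance from cone tissue. Of the contigs named from the tests, this difference between the dates was 10.76 log2 units for GAZW02022487 and 10.54 for GAZW02012967. It was -9.67 log2 units for GAZW02015617, -9.39 for GAZW02053953 and -3.90 for GAZW02056181. Dates with 2 libraries each are too small for a check of single libraries that stand apart.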

How the results depend on the processing

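The 8 differences named from the 2 tests kept their direction under all alternatives run, and 108 of 116 recomputed values kept the call too. These contigs were named for the largest differences, so their kept directions do not speak for other contigs. Settings that change only the contigs tested, the threshold or the libraries sharing the spread leave a difference unchanged. The 8 calls lost were those of the 4 contigs of the first test without either library of 10 June (limma adjusted p 0.0531 to 0.0686). Leaving out 1 library moved the first count to between 0 and 12641 (0 to 5297 higher, 0 to 7344 lower). With a mean of 5 FPKM or more it was 8868 (4416 higher, 4452 lower), fewer contigs being tested, and at an adjusted p under 0.01 it was 6278 (3477 higher, 2801 lower). The count against 6 July was 7031 and 7102 under these settings. The gametophyte set held 1654 contigs at 5 FPKM and 685 at 20 FPKM, and the cone set 1198 and 266. Read as a natural logarithm, the cone set held 1132 contigs, the scale moving both levels. Of 63 recomputed counts, 44 stayed within 1.5 times. No paired analysis was possible for the test against cone tissue because scales and bracts have no pollination state and the labels give no replicate numbers. With pollination state as a block in the 8 megagametophyte libraries, an alternative chosen after seeing the data, the count against 6 July was 11405, and the 4 contigs named from that test kept their calls. Unknown depth limits all statements on low contigs.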
